A study of Homo sapiens with 4 samples.

Results

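The 39 genes described here belong to the NRF2 pathway: NFE2L2, which encodes NRF2 itself, its partners and repressors, and its known targets in detoxification, glutathione, thioredoxin and NADPH metabolism and in efflux transport. They were listed by name and role, and all 39 were found among the 40205 genes listed. RNA-seq was performed on human lung cancer cells collected 24 h after transfection with a negative control siRNA (NC 1 and NC 2) or with an siRNA against circZFR (si-circZFR 1 and si-circZFR 2). Each group thus had 2 libraries of 1 cell line. CircZFR is a circular RNA made from exons of the *ZFR* gene, and the study asked which mRNAs changed when it was silenced. The sample labels name the line H1299, while the design text and the article name A549, a line known to carry a loss-of-function mutation of KEAP1.

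NRF2 is a transcription factor that cells keep scarce under resting conditions, because KEAP1 holds it in the cytoplasm and hands it to a ubiquitin ligase for degradation. Oxidants and electrophiles modify KEAP1, NRF2 then escapes, pairs with a small MAF protein such as MAFG and binds the antioxidant response element, a short DNA motif in its target promoters, while BACH1 competes for the same element as a repressor. In lung adenocarcinoma, mutations that inactivate KEAP1 leave NRF2 permanently active, and the aldo-keto reductases and NQO1 are among the genes that mark this state.

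The libraries held between 11040050 and 12816868 reads. *ZFR*, the gene that gives rise to the circle, was read at 26.0 and 31.8 scaled RPKM in the NC libraries and at 5.26 and 4.63 in the si-circZFR libraries, a fall of 2.33 on the log2 scale (limma, FDR = 0.0386, between 0.00226 and 0.622 in the other settings). A value per gene does not separate circular from linear reads. By RT-PCR, the article found the siRNA to lower circZFR and saw no effect on *ZFR*. Over the whole gene, reads here were 1437 and 1740 in NC and 284 and 267 in si-circZFR. Whether the linear mRNA fell as well was not tested. Scaled RPKM stands for reads divided by gene length and library size, with a further scaling between libraries. CDKN2A and CDKN2B, which are deleted in A549, were listed at 0 in all 4 libraries, and their neighbour MTAP, lost with them in that line, was at 1.28 to 2.98 scaled RPKM. Of 6 markers listed as high in A549, ALDH1A1 ranked 37 among the 13885 genes tested, while FGA, FGB, FGG and CEACAM6 ranked between 5649 and 12181 and SERPINA1 did not pass the filter. All 5 tested were higher in both si-circZFR libraries than in both NC libraries, against 28.3% of all genes tested. The list summed to 766.7 to 1020.3 in NC and 1197.4 to 1326.6 in si-circZFR. Nearly all of this was ALDH1A1, at 753.4 and 1006.6 in NC and 1167.5 and 1302.6 in si-circZFR. ALDH1A1 is also among the other NRF2 targets described below. These markers do not settle which of the 2 named lines was used, and RPKM values carry no KEAP1 genotype. Of 6 epithelial markers, 5 were tested and all 5 were likewise higher in both si-circZFR libraries, against the same 28.3%. EPCAM among them had only 2, 2, 9 and 14 reads, and KRT8 was nearly level between NC 2 (1197) and si-circZFR 1 (1213). The epithelial sums were 2087 to 2784 in NC and 3104 to 3202 in si-circZFR, mostly from KRT8 and KRT18, and ESRP1 was near 0. Of 5 mesenchymal markers, 3 (VIM, ZEB1 and AXL) were lower in both si-circZFR libraries, against 27.9% of all genes tested. The groups of CDH2 and FN1 overlapped, at 0.028 and 0.263 on the log2 scale. The sums of the 5 were 795.4 to 874.8 in NC and 720.1 to 777.9 in si-circZFR, mostly from VIM. Of 6 markers of other cell types (PTPRC, COL1A1, COL3A1, PECAM1, SFTPC, SFTPB), the sum was 0.623 to 0.894 in NC and 1.34 to 2.06 in si-circZFR, mostly from COL1A1. PTPRC was at 0 throughout, and the part of any of these lists in the results below was not tested.

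The promoters of the members were searched for the core of the antioxidant response element, written TGACNNNGC, on both strands from 250 bases before to 50 bases after each gene start (RefSeq, GRCh38.p14). Of the 30 members with such a window, 9 (30%) held the core, against 16.1% of the 27305 genes with a window and 19.7% of the tested genes among them. The stricter form TGACTCAGC was held by 2 members, ME1 and PIR, and by 0.689% of all genes with a window. The sites below come from genes of 6 different roles and are shown because they give 5 different cores, each in its own flanks. Each is printed on the strand that carries the motif, with the core in capitals.
ME1: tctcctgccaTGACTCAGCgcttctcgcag
PIR: agcctcaccgTGACTCAGCgcttcgcggcc
GCLM: tggaagacaaTGACTAAGCagaaatcgtag
GPX2: atccccaggaTGACTTAGCaaaaacaggtc
KEAP1: caggtcaccaTGACTAAGCagagccgggcg
TXNRD1: agagtcagaaTGACAAAGCagaaatccact
CBR1: ccagctagccTGACTTTGCagaacccgcag

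The ME1 site (chr6:83431169-83431198) held its core at position -137, counted from the gene start, and the PIR site (chrX:15493289-15493318) at position 26, after the start. The GCLM site (chr1:93909446-93909475) and the printed KEAP1 site (chr19:10502784-10502813) had theirs at -34 and -31 and shared the core TGACTAAGC. The GPX2 site (chr14:64942849-64942878) had its core at -122, the TXNRD1 site (chr12:104286919-104286948) at -102 from one of its starts, and the CBR1 site (chr21:36069854-36069883) at -159. PGD and EPHX1 held the core as well. A match of letters is a description of these windows and was not tied to binding in these cells, and AKR1B10, PRDX1, PRDX6, CBR3, SLC7A11, TRIM16L, ABCC1, ABCC3 and GSR were not searched.

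Many of the 39 listed NRF2 pathway genes were among the most abundant mRNAs of these cells, with or without the circZFR siRNA. The 39 genes took 2.25% of all reads in NC 1, 2.53% in NC 2, 2.35% in si-circZFR 1 and 2.53% in si-circZFR 2. The median scaled RPKM of the 38 members that passed the filter was 112.4, 121.3, 101.2 and 96.9 in the 4 libraries in that order, against 6.83 to 7.10 for all genes tested. By mean level, 11 of these 38 lay in the top 1% of genes tested (138 genes) and 26 in the top 10% (1388 genes). The top 10% held 0 of the 4 regulators among the members. It held 16 of the 40 other NRF2 targets and 2 of the 25 other NRF2 regulators tested, which are described below. The remaining member, PRDX2, a cytosolic peroxiredoxin, had 2, 4, 0 and 1 reads and was not tested.

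**Figure D1:**
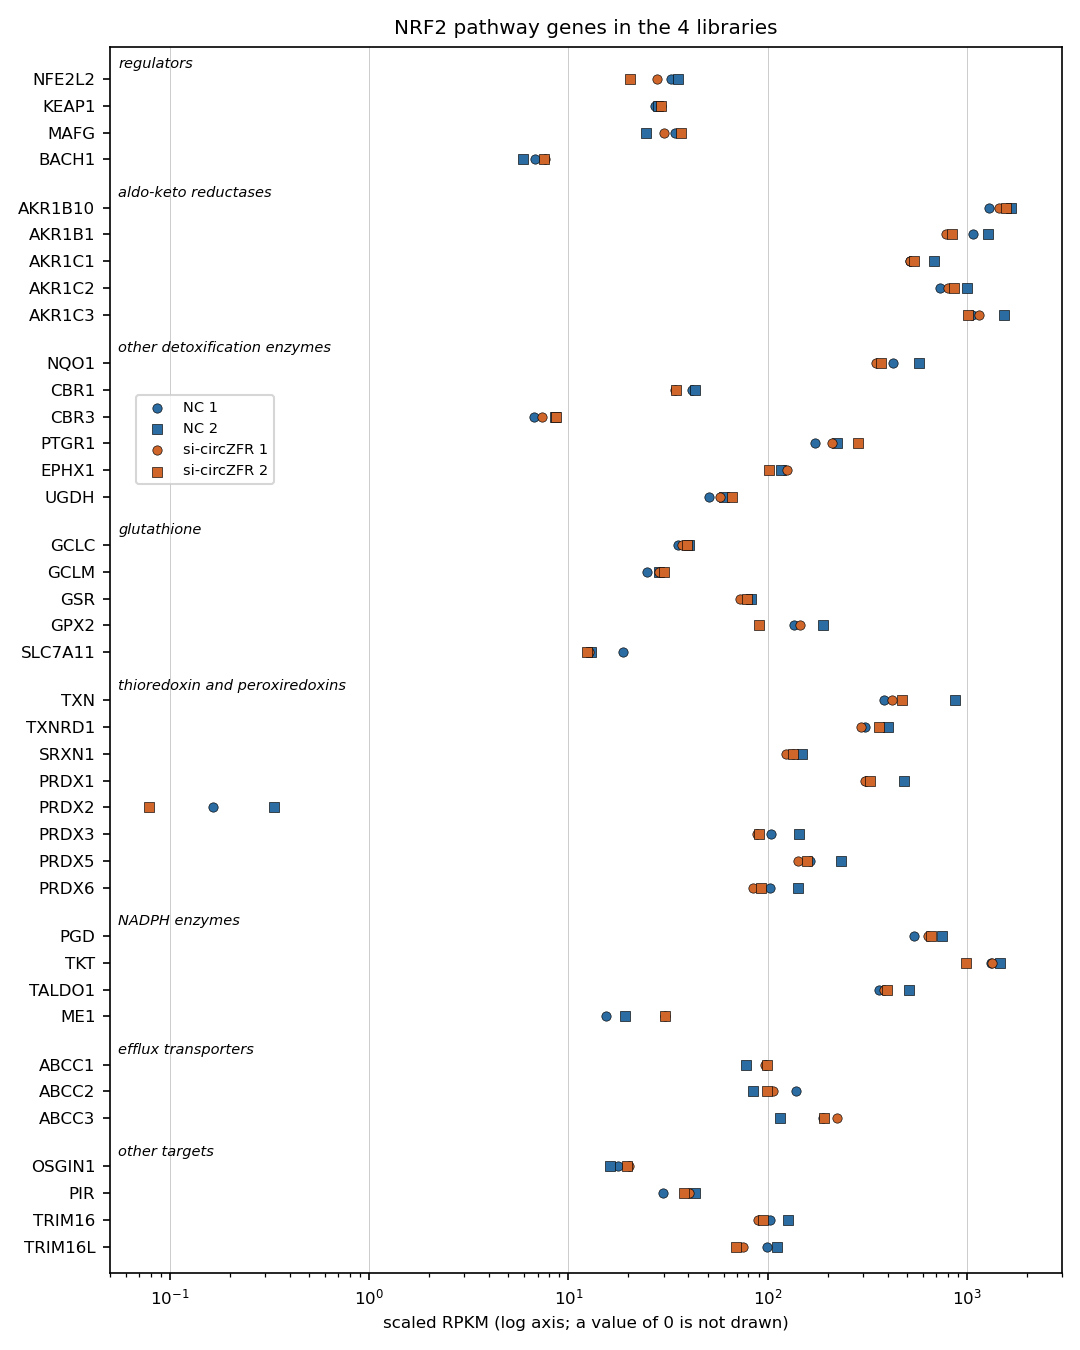
Scaled RPKM (log axis) of the 39 NRF2 pathway genes grouped by role, with circles and squares for replicates 1 and 2, blue for NC and orange for si-circZFR. Most points of a gene lie close together, with AKR1B10, AKR1C3 and TKT near or above 1000 scaled RPKM in every library and PRDX2 near 0.

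None of the 38 members tested passed the threshold of FDR under 0.05 (limma, Benjamini-Hochberg over all genes tested) with an absolute log2 fold change over 1, which 0.0576% of all genes tested passed, and none passed on FDR alone. By the same test with a filter of CPM above 1, which called 1.31% of genes (1.47% on FDR alone), and by limma-voom on recovered reads, which called 2.52% (3.18% on FDR alone), the count was also 0. At an unadjusted p under 0.05 there were 3 members, NFE2L2 and TRIM16L on the lower side and ME1 on the higher side. This is 7.89% of the members, against 21.7% of all genes tested (11.5% lower and 10.2% higher). In bulk RNA a lower value can come from fewer cells of a kind or from less RNA per cell, and these cannot be told apart. Both si-circZFR libraries lay below both NC libraries for 11 members (28.9%), close to the 27.9% of all genes tested, and above them for 5 members (13.2%), against 28.3% of all genes. The count above was 11 with library totals only and 19 under quantile normalisation. For the other 22 members the groups overlapped. The median log2 fold change was -0.10 over the members and 0.0084 over all genes tested, while the 1388 most abundant genes had a median of -0.23 and the 26 members among them -0.16. The median of the members became 0.018 without NC 2, and 0.148 under quantile normalisation.

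**Figure D2:**
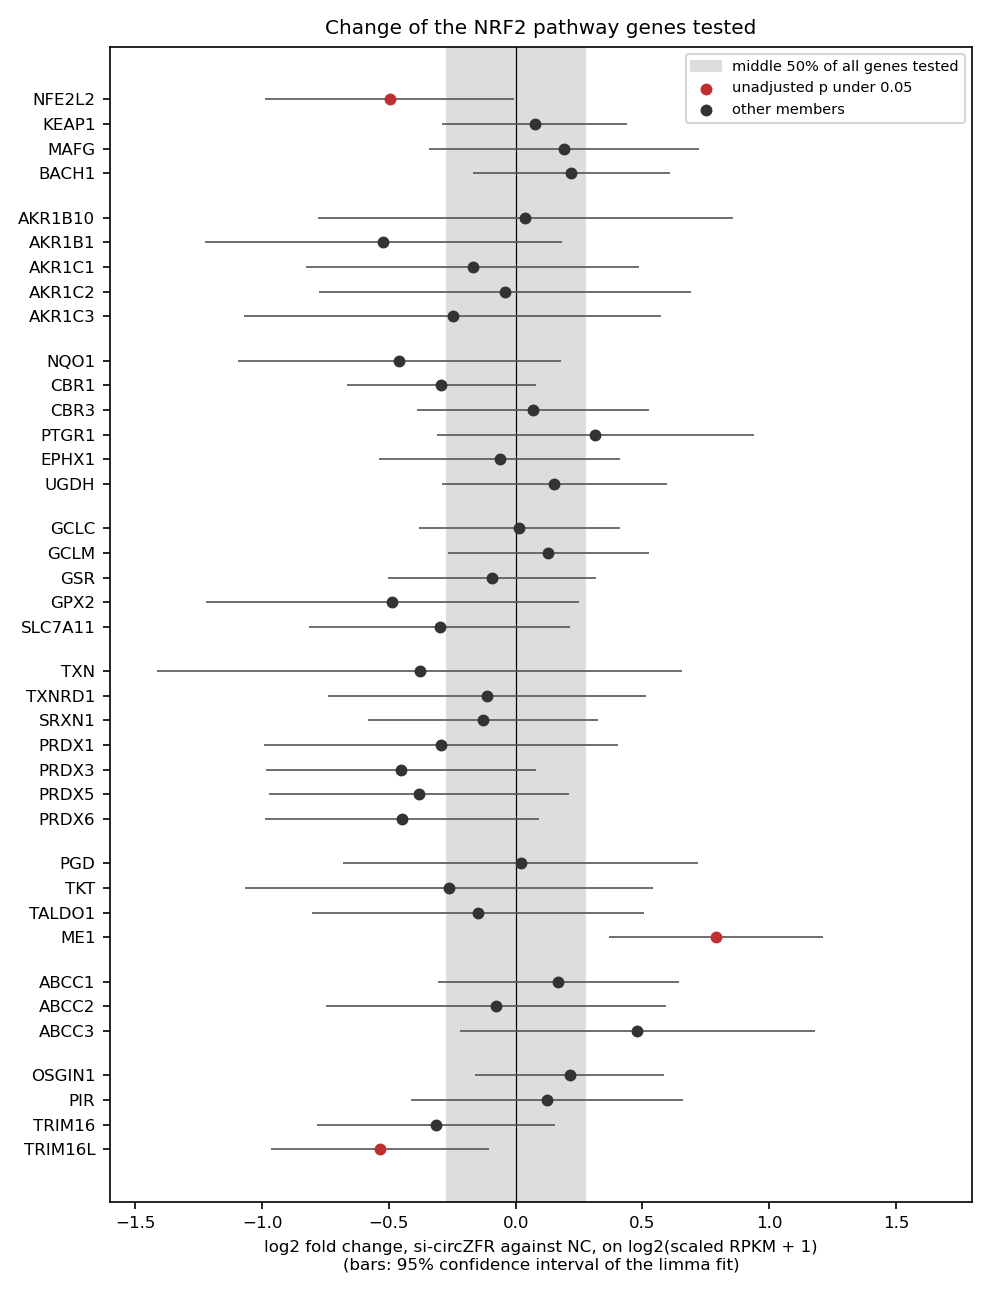
Log2 fold change of the 38 members tested, si-circZFR against NC, on log2(scaled RPKM + 1), with 95% confidence intervals of the limma fit and a grey band for the middle 50% of all genes tested. The red points are the 3 members with an unadjusted p under 0.05, ME1 at 0.79, NFE2L2 at -0.50 and TRIM16L at -0.54. All other intervals span 0.

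Among the regulators, the mRNA of NRF2 itself was lower in both si-circZFR libraries, short of the threshold. NFE2L2 was read at 32.8 (NC 1), 35.6 (NC 2), 28.0 (si-circZFR 1) and 20.4 (si-circZFR 2) scaled RPKM. Its log2 fold change was -0.50 ± 0.20 (SE, n = 2 per group; limma, unadjusted p = 0.0475, FDR = 0.226). Both si-circZFR libraries lay below both NC libraries, and the 2 si-circZFR libraries differed from each other nearly as much as the groups did. Without si-circZFR 2 the log2 fold change of NFE2L2 was -0.28 (limma, FDR = 0.773). KEAP1, the adaptor that delivers NRF2 to its ubiquitin ligase, was nearly level at 27.2, 28.0, 29.0 and 29.3 scaled RPKM, with a log2 fold change of 0.08 ± 0.15 (SE, limma, FDR = 0.794, 95% interval -0.29 to 0.44). Its sign turned to -0.042 once length and GC content were corrected for.

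MAFG, the small MAF partner of NRF2, was read at 34.2, 24.6, 30.1 and 36.7 scaled RPKM, so the groups overlapped and NC 2 was the lowest. Its log2 fold change of 0.19 ± 0.22 (SE, limma, FDR = 0.629) became -0.037 without NC 2. BACH1, the repressor that competes for the same element, was read at 6.76, 5.94, 7.59 and 7.51 scaled RPKM. Both si-circZFR libraries lay above both NC libraries for BACH1, by 0.22 ± 0.16 on the log2 scale (SE, limma, FDR = 0.448).

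The 5 aldo-keto reductases, which reduce reactive aldehydes and ketones with NADPH, held 0.826% of all reads in NC 1, 1.01% in NC 2, 0.879% in si-circZFR 1 and 0.992% in si-circZFR 2, and none passed the test. AKR1B10, the most abundant member, was read at 1297 and 1673 scaled RPKM in NC and at 1449 and 1577 in si-circZFR. The si-circZFR values lay between the NC values, and the log2 fold change was 0.04 ± 0.33 (SE, limma, FDR = 0.959, 95% interval -0.78 to 0.86). The estimate turned to -0.146 without NC 1 and to -0.024 without si-circZFR 2. AKR1B1, aldose reductase, was the one aldo-keto reductase whose groups did not overlap. That is 20% of the 5 below NC, against 27.9% of all genes tested, and 0 above NC, against 28.3%. AKR1B1 was read at 1071 and 1271 scaled RPKM in NC and 787 and 838 in si-circZFR. Its log2 fold change was -0.52 ± 0.29 (SE, limma, FDR = 0.335) and moved to 0.0025 under quantile normalisation.

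AKR1C3, which also converts steroids and prostaglandins, was read at 1066, 1538, 1151 and 1008 scaled RPKM. Its groups overlapped, with NC 2 the highest of the 4, and the log2 fold change of -0.25 ± 0.33 (SE, limma, FDR = 0.689) turned to 0.016 without NC 2 and to 0.155 under quantile normalisation. AKR1C1 and AKR1C2 overlapped as well, at log2 fold changes of -0.17 and -0.04. These genes are close copies: 47.3% of the 50-base windows of the AKR1C2 transcript occur in other genes, 45.7% in AKR1C1 alone, and 17.2% of those of AKR1B10 occur elsewhere, so reads may be split between them.

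Of the 6 other detoxification enzymes, NQO1 and CBR1 were lower in both si-circZFR libraries (33.3%, against 27.9% of all genes tested). The other 4 overlapped, so 0 lay above NC, against 28.3% of all genes tested. NQO1, the quinone reductase most often used to read NRF2 activity, stood at 423 and 578 scaled RPKM in NC and at 349 and 370 in si-circZFR. The log2 fold change was -0.46 ± 0.26 (SE, limma, FDR = 0.347), similar in size to the difference between NC 2 and NC 1 (0.45). It was -0.235 without NC 2 and -0.012 under quantile normalisation. CBR1, a carbonyl reductase, was read at 41.7 and 43.4 scaled RPKM in NC and at 34.2 and 34.8 in si-circZFR. The replicates of CBR1 lay close together and the groups were apart, by -0.29 ± 0.15 (SE, limma, FDR = 0.315). CBR3, PTGR1, EPHX1 and UGDH, which reduce carbonyls, inactivate prostaglandins and leukotrienes, open epoxides and make the sugar donor for glucuronidation, ranged from -0.06 to 0.31 on the log2 scale.

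The glutathione genes cover cystine import, synthesis, reduction and use, and none of the 5 passed the test. GCLC and GCLM, the catalytic and modifier subunits of the enzyme that sets the rate of glutathione synthesis, had log2 fold changes of 0.015 and 0.13, with overlapping groups and a 95% interval of -0.38 to 0.41 for GCLC. GPX2, a selenium-containing glutathione peroxidase of epithelia, was read at 136.1 and 188.9 scaled RPKM in NC and at 144.7 and 90.2 in si-circZFR. Its groups overlapped and its log2 fold change was -0.49 ± 0.30 (SE, limma, FDR = 0.384), ranging from -0.148 without si-circZFR 2 to -0.824 without si-circZFR 1, with -0.251 without NC 2. SLC7A11, the cystine importer, was read at 18.9, 13.0, 12.6 and 12.4 scaled RPKM. Here NC 1 stood apart from the other 3 libraries, and the log2 fold change was -0.30 ± 0.21 (SE, limma, FDR = 0.435), -0.047 without NC 1 and -0.553 without NC 2. GSR, which regenerates reduced glutathione, was lower in both si-circZFR libraries by only 0.09 on the log2 scale.

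The thioredoxin and peroxiredoxin group, which passes electrons from NADPH to peroxides and oxidised proteins, had the lowest median of the 8 role groups, at -0.38. All 7 tested genes had a log2 fold change below 0, as 49.1% of all genes tested did, but only 4 did without NC 2, 5 with library totals only and 3 under quantile normalisation. In 3 of the 7 (42.9%, against 27.9% of all genes tested), PRDX3, PRDX5 and PRDX6, both si-circZFR libraries lay below both NC libraries. PRDX3, the mitochondrial peroxiredoxin, was read at 104.2 and 144.1 scaled RPKM in NC and at 88.6 and 90.1 in si-circZFR, a log2 fold change of -0.45 ± 0.22 (SE, limma, FDR = 0.287). PRDX6, which also repairs oxidised lipids, was read at 102.9 and 142.2 in NC and at 84.8 and 92.4 in si-circZFR, a log2 fold change of -0.45 ± 0.22 (SE, limma, FDR = 0.294). In both genes NC 2 was well above the other 3 libraries, and without it the log2 fold changes were -0.22 (PRDX3) and -0.216 (PRDX6). All 7 were higher in NC 2 than in NC 1, most of all TXN, whose NC 2 value was 2.27 times its NC 1 value. The median of the group was -0.058 without NC 2, 0.066 under quantile normalisation and -0.18 once length and GC content were corrected for. TXNRD1, which reduces thioredoxin, and SRXN1, which restores overoxidised peroxiredoxins, were at -0.11 and -0.13 with overlapping groups, and 90.6% of the 50-base windows of the SRXN1 transcript are shared with an overlapping gene model.

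Of the 4 enzymes that make NADPH or carry sugars through the pentose phosphate pathway, ME1 had the largest difference of any member. ME1, the cytosolic malic enzyme, was read at 15.5 and 19.3 scaled RPKM in NC and at 30.6 in both si-circZFR libraries, from 638, 788, 1232 and 1316 reads. The group means were 17.4 ± 2.70 and 30.6 ± 0.0081 (SD, n = 2 per group), a ratio of 1.76. The groups were well apart, and the log2 fold change was 0.79 ± 0.17 (SE, 95% interval 0.37 to 1.21; limma, unadjusted p = 0.00398). With Benjamini-Hochberg adjustment over all genes tested, limma gave ME1 an FDR of 0.1001, and the FDR ranged from 0.0547 by limma-voom to 0.651 over the other settings. Its promoter holds the strict antioxidant response element printed above. PIR holds that form too, and the groups of PIR overlapped, at a log2 fold change of 0.125. Whether the element had a part in either value was not tested.

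TKT, a transketolase of the pentose phosphate pathway and the second most abundant member, was read at 1315, 1459, 1340 and 993 scaled RPKM. Its groups overlapped, si-circZFR 2 being the lowest library, and the log2 fold change of -0.26 ± 0.33 (SE, limma, FDR = 0.662) turned to 0.137 under quantile normalisation and was -0.048 without si-circZFR 2. PGD, which produces NADPH in the same pathway, and TALDO1, which acts beside TKT, had log2 fold changes of 0.020 and -0.15 with overlapping groups.

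The 3 efflux transporters, which export glutathione and glucuronide conjugates, ran in the opposite direction between the control libraries. ABCC3 was read at 189.1 and 115.4 scaled RPKM in NC and at 221.6 and 192.1 in si-circZFR. Both si-circZFR libraries lay above both NC libraries, although NC 1 was close to si-circZFR 2, and the log2 fold change was 0.48 ± 0.28 (SE, limma, FDR = 0.367), 0.125 without NC 2 and 0.833 without NC 1. ABCC1 was read at 97.9, 77.4, 96.4 and 99.4 scaled RPKM, with NC 2 the one low library. Its log2 fold change of 0.17 ± 0.19 (SE, limma, FDR = 0.636) was -6.1e-05 without NC 2 and -0.030 once length and GC content were corrected for. ABCC2 overlapped, at -0.08. The median difference of NC 2 from NC 1 was -0.71 over the 3 transporters.

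The last 4 members are OSGIN1, an inhibitor of cell growth induced by oxidative stress, PIR, an iron-binding nuclear protein, TRIM16, an E3 ubiquitin ligase of the stress response, and TRIM16L, a gene close in sequence to TRIM16. TRIM16L was read at 98.9 and 111.7 scaled RPKM in NC and at 74.9 and 69.5 in si-circZFR. Both si-circZFR libraries lay below both NC libraries, at a log2 fold change of -0.54 ± 0.17 (SE, 95% interval -0.97 to -0.11; limma, unadjusted p = 0.0228, FDR = 0.171). TRIM16 was read at 103.0 and 126.6 scaled RPKM in NC and at 89.2 and 94.2 in si-circZFR, again with the groups apart, at -0.31 ± 0.19 (SE, limma, FDR = 0.379), and at -0.165 without NC 2. The pair shares sequence, with 54.4% of the 50-base windows of TRIM16L found in TRIM16, so their reads are not fully separate. OSGIN1 was higher in both si-circZFR libraries by 0.21 on the log2 scale, and PIR overlapped at 0.12.

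The members with short transcripts and those with long ones differed between the control libraries. NC 2 was higher than NC 1 for 30 of the 38 members, against 50.3% of all genes tested, and the median difference was 0.27 over the members. Across the 38 members this difference ran against the log2 of gene length (Pearson r = -0.757, Spearman rho = -0.709), with the short TXN highest and the long ABCC2, ABCC3 and SLC7A11 lowest. The log2 fold change ran the other way (r = 0.377, rho = 0.412), and not without NC 2 (r = -0.106, rho = -0.045) or once length and GC content were corrected for (r = -0.035). Over all 13885 genes tested Spearman rho with length was -0.339 for the difference between the NC libraries and 0.291 for the log2 fold change, which was still 0.16 without NC 2. These correlations are across genes that share the same 4 libraries, and the part of length in each member's value was not tested beyond that correction.

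**Figure D3:**
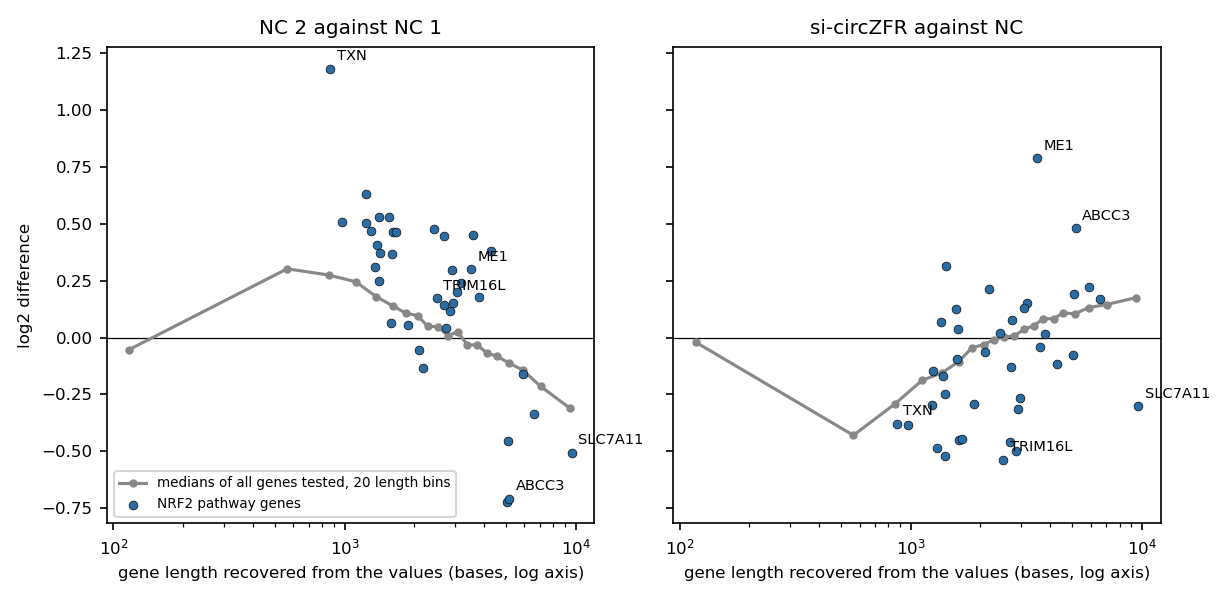
Log2 difference of NC 2 from NC 1 (left) and log2 fold change of si-circZFR against NC (right) by gene length in bases on a log axis, for the 38 members (blue) and as medians of all genes tested in 20 length bins (grey line). On the left the members slope downwards, from TXN at 1.18 to SLC7A11, the longest, at -0.51, with ABCC3 at -0.71, and on the right they spread around 0 with ME1 above the rest.

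Beyond the members, 43 other NRF2 targets, 26 regulators of NRF2 and 37 other redox enzymes were described by role, and none passed FDR under 0.05 by limma with either filter. Of the 40 other targets tested, 7 were lower (17.5%, against 11.5% of all genes tested) and 1 higher (2.5%, against 10.2%) at an unadjusted p under 0.05. Both si-circZFR libraries lay below NC for 18 (45%, against 27.9% of all genes) and above NC for 8 (20%, against 28.3%). The median log2 fold change of these targets was -0.096, and limma-voom gave an FDR under 0.05 for 2 of them, HMOX1 and SQSTM1, beside 3.18% of all genes. HMOX1, heme oxygenase 1, was read at 76.8 and 92.4 scaled RPKM in NC and at 46.3 and 41.1 in si-circZFR. Its log2 fold change was -0.93 ± 0.18 (SE, limma, FDR = 0.0891, and 0.0336 by limma-voom). Its groups were well apart. SQSTM1, the autophagy receptor p62 that binds KEAP1, was read at 1068 and 1390 scaled RPKM in NC and at 465 and 529 in si-circZFR, also apart. Its log2 fold change was -1.30 (limma, FDR = 0.102, and 0.0318 by limma-voom), and -0.728 under quantile normalisation.

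The ferritin chains, which store iron, were low in both si-circZFR libraries. FTL was read at 8853 and 11952 scaled RPKM in NC and at 5704 and 4526 in si-circZFR (log2 fold change -1.02, limma, FDR = 0.328). FTH1 was read at 1106 and 993 in NC and at 651 and 649.7 in si-circZFR (log2 fold change -0.69, limma, FDR = 0.218). The groups of both chains were apart, but under quantile normalisation the log2 fold changes were -0.095 for FTL and -0.129 for FTH1. CHAC1, which degrades glutathione, was read at 3.17, 2.65, 1.62 and 0.786 scaled RPKM, also apart, at -0.85 (limma, FDR = 0.146).

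Of the 25 regulators tested, 2 were lower (8%, against 11.5% of all genes tested) and 4 higher (16%, against 10.2%) at an unadjusted p under 0.05, with a median log2 fold change of 0.086. MAFK, another small MAF partner of NRF2, was read at 28.1 and 20.6 scaled RPKM in NC and at 48.1 and 59.9 in si-circZFR. The groups did not overlap, at a log2 fold change of 1.12 ± 0.22 (SE, limma, FDR = 0.0882, and 0.0320 by limma-voom, the one regulator under 0.05 there). SYVN1, a ubiquitin ligase of the endoplasmic reticulum that can degrade NRF2, was read at 17.5, 12.9, 26.2 and 27.5, at 0.80 (limma, FDR = 0.116). NFE2L3, a relative of NRF2, was read at 9.68, 10.8, 6.45 and 5.97, at -0.64 (limma, FDR = 0.118). The groups of SYVN1 and NFE2L3 did not overlap either.

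Of the 34 other redox enzymes tested, 2 were lower and 2 higher at an unadjusted p under 0.05 (11.8% in all, against 21.7% of all genes tested), with a median log2 fold change of -0.17. MSRB3, a methionine sulfoxide reductase, was read at 3.09 and 2.76 scaled RPKM in NC and at 6.38 and 8.10 in si-circZFR (log2 fold change 1.06, limma, FDR = 0.0828, and 0.0273 by limma-voom, the one gene of this list under 0.05 there). SOD2, the mitochondrial superoxide dismutase, was read at 82.0 and 80.0 in NC and at 120.9 and 139.6 in si-circZFR (log2 fold change 0.68, limma, FDR = 0.129). GPX1, the cytosolic glutathione peroxidase, was read at 14.9 and 20.4 in NC and at 10.5 and 11.5 in si-circZFR (log2 fold change -0.62, limma, FDR = 0.164, and -0.409 without NC 2). In each of these genes, named for the smallest p of the list, the groups did not overlap. Both si-circZFR libraries lay below NC for 11 of the 34 (32.35%, against 27.9% of all genes tested). They lay above NC for 6 (17.65%, against 28.3%).

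**Figure D4:**
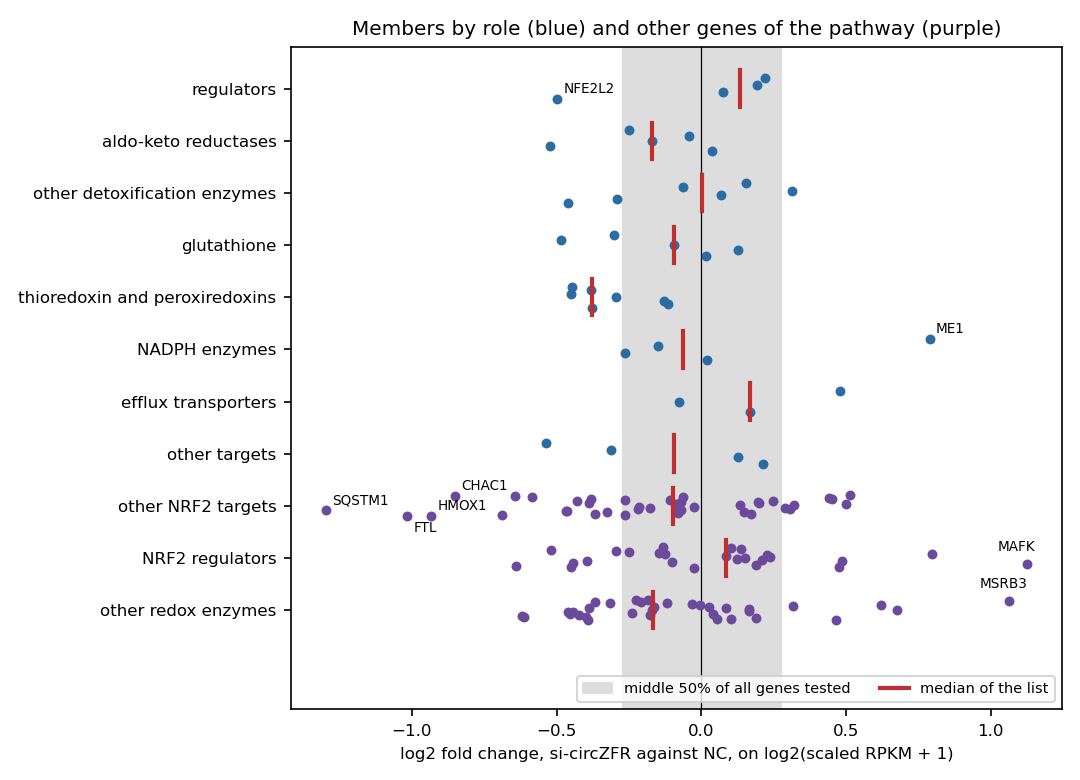
Log2 fold change of each tested gene, si-circZFR against NC on log2(scaled RPKM + 1), for the 8 role groups of members (blue) and the 3 other lists (purple), with the median of each list as a red bar and the middle 50% of all genes tested in grey. The thioredoxin and peroxiredoxin group lies to the left of 0 with a median of -0.38 (0.066 under quantile normalisation), and the genes farthest from 0 (SQSTM1 at -1.30, MAFK at 1.12 and MSRB3 at 1.06) belong to the other lists.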

How the data were processed

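Total RNA from 4 transfected samples was sequenced by the authors on the Ion Proton, and the deposited files give RPKM per gene and library. The article states hg38 and the submitters' processing notes list GRCh37, the files hold no coordinates, and the handling of reads that match several genes is not given in the sources used here. Sample titles gave the groups and replicate numbers. The labels do not say whether the 2 libraries of a group came from separate cultures, so p-values measure the spread between these samples, which may be technical.

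Reads were recovered from the RPKM values as the smallest gene length giving whole reads in all libraries (tolerance 0.02), which succeeded for 24282 of 24289 genes above 0 (99.97%). Since each length was fitted, this is no independent check. Library totals were set at the value that gave whole reads for the most microRNA hairpins of known length. Between 97.3% and 100% of these hairpins were whole, which is no independent check either. Of the library total, 98.4% to 98.8% fell on genes. The planned test was limma on RPKM, since the deposited unit is not counts. Libraries were scaled to each other with a trimmed mean of log ratios (trimming 30% by ratio and 5% by level). A gene was tested when 2 or more libraries reached an RPKM of 1 (13885 of 40205). Limma with a trended prior variance was then fitted to log2(scaled RPKM + 1), with Benjamini-Hochberg adjustment. A fold change on this scale understates that of low genes. The RPKM filter kept 188 genes with fewer than 10 reads in all. The test was run on simulated data first.

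The members and lists were chosen with earlier results of these data known. Values per library are given for the 4 regulators, the 2 members of each other role group with the smallest p, the 2 most abundant members, AKR1B10 and NQO1, the 3 genes of each other list with the smallest p, and HMOX1, FTL, FTH1 and SQSTM1. Results for some genes under this rule are left out here. Members shown only by their log2 fold change, and TXN and PRDX2, stand outside that rule. Alternatives were other scalings, filters and pseudocounts, limma-voom, no trend, a replicate block, a loess correction for gene length and GC (a GC value for 86.6% of genes tested) and leaving out each library. Promoter windows came from RefSeq (GRCh38.p14), and shared 50-base windows from GENCODE transcripts. Fits used limma 3.58.1 in R 4.3.3. Tables were handled in Python 3.11.15 with pandas 2.3.3 and numpy 2.4.6, and intervals and figures made with scipy 1.17.1 and matplotlib 3.10.9.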

Additional observations from a re-analysis of the deposited data

How the results depend on the processing

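No member passed an FDR of 0.05 under any of the 16 other settings, and of 304 pairs of a named member and a setting, 294 kept the direction of the log2 fold change and 10 turned it. These were KEAP1 (-0.042) and ABCC1 (-0.030) once length and GC content were corrected for, AKR1B1 (0.0025), AKR1C3 (0.155) and TKT (0.137) under quantile normalisation, and, with 1 library left out, MAFG (-0.037 without NC 2, up to 0.419), AKR1C3 (-0.514, up to 0.016 without NC 2), ABCC1 (-6.1e-05 without NC 2, up to 0.335) and AKR1B10 (-0.146 without NC 1, -0.024 without si-circZFR 2, up to 0.221). ME1, NFE2L2 and TRIM16L kept theirs. The cause was not tested for any of these.

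The number of members at an unadjusted p under 0.05 (3) was 1 with library totals only, 5 under quantile normalisation and 5 by limma-voom, and 1 (without si-circZFR 2) to 11 (without NC 1) with 1 library left out, where the lone library is assumed to vary like the others. Members below NC in both si-circZFR libraries (11) numbered 6 with library totals only and 7 under quantile normalisation, and members above (5) numbered 11, 8 with upper quartile scaling, 19 under quantile normalisation and 9 after the length and GC correction. These 2 counts were not taken with a library left out. Library totals alone moved the median log2 fold change of all genes from 0.0084 to 0.15, and that of the members from -0.10 to 0.067, which is -0.083 relative to all genes. Quantile normalisation gave 0.148 for the members, and leaving out 1 library -0.209 (without NC 1) to 0.018 (without NC 2). The medians of the other NRF2 targets, regulators and other redox enzymes (-0.096, 0.086 and -0.17) were 0.052, 0.225 and -0.005 with library totals only, which is -0.098, 0.075 and -0.155 relative to all genes. The other targets moved to -0.056 with upper quartile scaling, -0.032 under quantile normalisation and -0.151 after the length and GC correction, where the regulators moved to -0.062. With 1 library left out the ranges were -0.188 to -0.148 for other targets, -0.0083 (without si-circZFR 1) to 0.043 for regulators and -0.277 to 0.015 (without NC 2) for other redox enzymes.

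The deviations of NC 1 and si-circZFR 1 were nearly uncorrelated across genes (0.069), which cannot tell whether the replicate numbers pair the samples. With the replicate block 0 members passed, and over all genes the count of calls was 17 in place of 8. It was 0 with no filter and without NC 2, si-circZFR 1 or si-circZFR 2, 193 with the CPM filter, 181 with RPKM of at least 5, 371 by limma-voom, 1 without the trend, 24 after the length and GC correction and 692 without NC 1. Each member tested had at least 106 reads in every library, while PRDX2 had 0 to 4. Why PRDX2 had so few was not tested.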
